A study of Salmo salar with 12 samples.

Results

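The miR-30 and miR-26 families of Atlantic salmon (Salmo salar) were followed here in small RNA libraries of adherent intestinal cells (AIC, 6 libraries, from distal intestine) and adherent head kidney cells (AKC, 6 libraries, the reference cell type of the study). The members were selected on their names and on the measured counts: a mature miRNA called ssa-miR-30 or ssa-miR-26 plus 1 letter and an arm, without a locus number, with at least 500 counts summed over the 12 libraries. Of 9 such names, 6 reached this sum, among 361 mature miRNAs listed and 180 with a count in any library. They were ssa-miR-30a-5p, ssa-miR-30b-5p, ssa-miR-30c-5p, ssa-miR-30e-5p, ssa-miR-26a-5p and ssa-miR-26b-5p, all of the 5p arm. The sum over all libraries chose the members, so their abundance is a description. The rule did not use the comparison of AIC with AKC, but it was set with earlier results of these data known. The lowest sum inside the limit was 1352 counts for ssa-miR-30e-5p, and the highest outside it was 194 counts for ssa-miR-30d-5p.

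The fish were post smolts of 550 g on average from 1 commercial producer, without an experimental treatment. All were starved for 24 h and killed with an overdose of tricaine. By their labels AIC and AKC differ in the organ the cells came from. The study sampled 6 fish and dissected distal intestine and head kidney, so AIC and AKC libraries can share fish. The number of a library marks a replicate, and no source states that equal numbers are the same fish. Cells of both organs were left to adhere for 2 days at 12°C, whatever remained attached was harvested without further sorting, and 50 ng of RNA went into each library with 25 PCR cycles. The study asked which miRNAs were equally abundant and which were differentially expressed between AIC and AKC. The study calls the libraries biological replicates, and the p-values measure the spread between these libraries, treated as independent.

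A miRNA silences messenger RNAs that pair with its seed, the short stretch near its 5′ end, and miRNAs of 1 family share that seed and therefore many targets. In mammals the miR-30 family is known for holding epithelial cells in their differentiated state by repressing Snai1, and for repressing DLL4, a Notch ligand, in endothelial cells. The miR-26 genes of vertebrates lie in introns of the ctdsp phosphatase genes, and miR-26a represses the chromatin modifier Ezh2 in mouse muscle cells. Both families are detected in most mammalian tissues.

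The total of the estimated counts was between 2253241 and 11804738 for an AIC library (median 4842495). For AKC it was between 5791813 and 19586478 (median 11374165). Between 73 and 125 mature miRNAs had a count in a library. A count of 3 was taken as the floor, and a library at 0 allows a level of up to 0.105 CPM in the deepest and 1.59 CPM in the shallowest library once scaled. CPM here means counts per 1000000 after scaling by TMM, which sets libraries level on the bulk of their miRNAs. These floors and the intervals of shares cover counting error only, since PCR copies are not independent molecules. As bulk cells these populations are mixed. The leukocyte miRNAs of a fixed list (7 of 8 rows with a count, miR-223 at 0) held between 0.164% and 1.60% of an AIC library and between 1.19% and 3.55% of an AKC library. Of the tested leukocyte rows ssa-miR-150-5p had the most, a mean of 11229 CPM in AIC and 15166 CPM in AKC. ssa-miR-155-5p had 179 and 1929 CPM. The endocrine-cell list of miR-375 and miR-7 (3 of 5 rows with a count) held between 19.5% and 28.4% in AIC and at most 0.0249% in AKC. In AIC this is mainly ssa-miR-375-3p, with a mean of 333013 CPM against 226 CPM for ssa-miR-7a-5p. The epithelial list (12 of 15 rows with a count, miR-141 at 0) held between 0.450% and 1.26% in AIC and at most 0.00954% in AKC. The endothelial and stromal list (4 of 8 rows, miR-145 and miR-214 at 0) held at most 0.0190% in any library. The muscle list (3 of 10 rows, miR-1 at 0) held at most 0.00602%, and both erythroid rows had no count. The part of these cell types in the members' values was not tested, and fewer cells of a type cannot be told apart from less RNA per cell.

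ssa-miR-30b-5p was the abundant member in both cell types and the member that every library held in quantity. It ranked 8 among the 76 miRNAs tested by mean CPM, and it made up between 94.9% and 99.9% of the miR-30 member counts in AIC and between 96.9% and 99.2% in AKC. In AIC its level was 5904 CPM in the lowest library, 10719 at the median and 19664 in the highest. In AKC it was 3829 CPM in the lowest library, 6341 at the median and 12950 in the highest. In CPM, AIC replicate 2 was the highest of all libraries and AKC replicate 3 the lowest, a range of 5.14-fold, and the groups overlapped. As a percentage of unscaled library counts, AKC replicate 1 was the highest at 1.89%, against 1.33% in AIC replicate 2. AKC replicate 3 was again the lowest, at 0.504%. Within AKC, replicates 1 and 2 stood above the other 4, at 12950 and 12873 CPM against at most 7300. Its coefficient of variation was 42.4% in AIC and 50.7% in AKC, rank 20 and rank 30 from the steadiest of the 76 miRNAs. It was thus broadly expressed in these libraries, whereas each of the other 5 members had 3 counts or fewer in at least 1 of them. Many of the 76 miRNAs tested had such a library and many had none, so neither trait is particular to the members.

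ssa-miR-26a-5p was next in level, and 11 of the 12 libraries held at least 454 of its counts. Its AIC libraries had 1.06 CPM at the lowest, 513 at the median and 1183 at the highest. Its AKC libraries had 232 CPM at the lowest, 469 at the median and 892 at the highest. The exception was AIC replicate 1, with 2 counts, and the other AIC libraries, between 215 and 1183 CPM, overlapped with AKC. ssa-miR-26b-5p, whose counterpart in zebrafish represses ctdsp2, the gene that hosts it, was lower. It had 0.474 CPM in the lowest AIC library, 151 at the median and 326 in the highest. In AKC it had 1.64 CPM in the lowest library, 61.1 at the median and 132 in the highest. AIC replicate 5 held 1 count of ssa-miR-26b-5p and AKC replicate 4 held 10, so the libraries low in ssa-miR-26b-5p were not the library low in ssa-miR-26a-5p.

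ssa-miR-30a-5p, whose human counterpart represses the autophagy gene BECN1, had 0.530 CPM in the lowest AIC library, 201 at the median and 457 in the highest. In AKC it had 19.0 CPM in the lowest library, 79.7 at the median and 224 in the highest. Again AIC replicate 1 was the low library, with 1 count, and the remaining AIC libraries overlapped with AKC. ssa-miR-30c-5p, which in mice lowers the lipid transfer protein MTP, was spread over a range of 106-fold. It had 1.33 CPM in the lowest AIC library, 23.8 at the median and 105 in the highest. In AKC the values were 0.991 CPM in the lowest library, 7.92 at the median and 37.0 in the highest. Within AIC 3 libraries had at most 7.42 CPM and the other 3 at least 40.1 CPM, and within AKC 3 had at most 4.32 CPM and the other 3 at least 11.5 CPM. ssa-miR-30e-5p was split more sharply. It had 0 counts in AIC replicates 1, 2 and 6 and in AKC replicates 3, 4 and 6, and between 77 and 399 counts in the other 6 libraries, through which it passed the filter on low counts. Where present it had between 28.3 and 36.5 CPM in AIC and between 12.5 and 17.6 CPM in AKC. These levels were above the floor of every library at 0, which was at most 1.59 CPM. The gap between the groups in these CPM values depended on the scaling. Every TMM factor was at most 0.9998 for AIC and at least 1.054 for AKC. Unscaled, the percentages of library counts overlapped among these 6 libraries, with 0.00173% to 0.00311% for AIC against 0.00162% to 0.00316% for AKC.

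**Figure D1:**
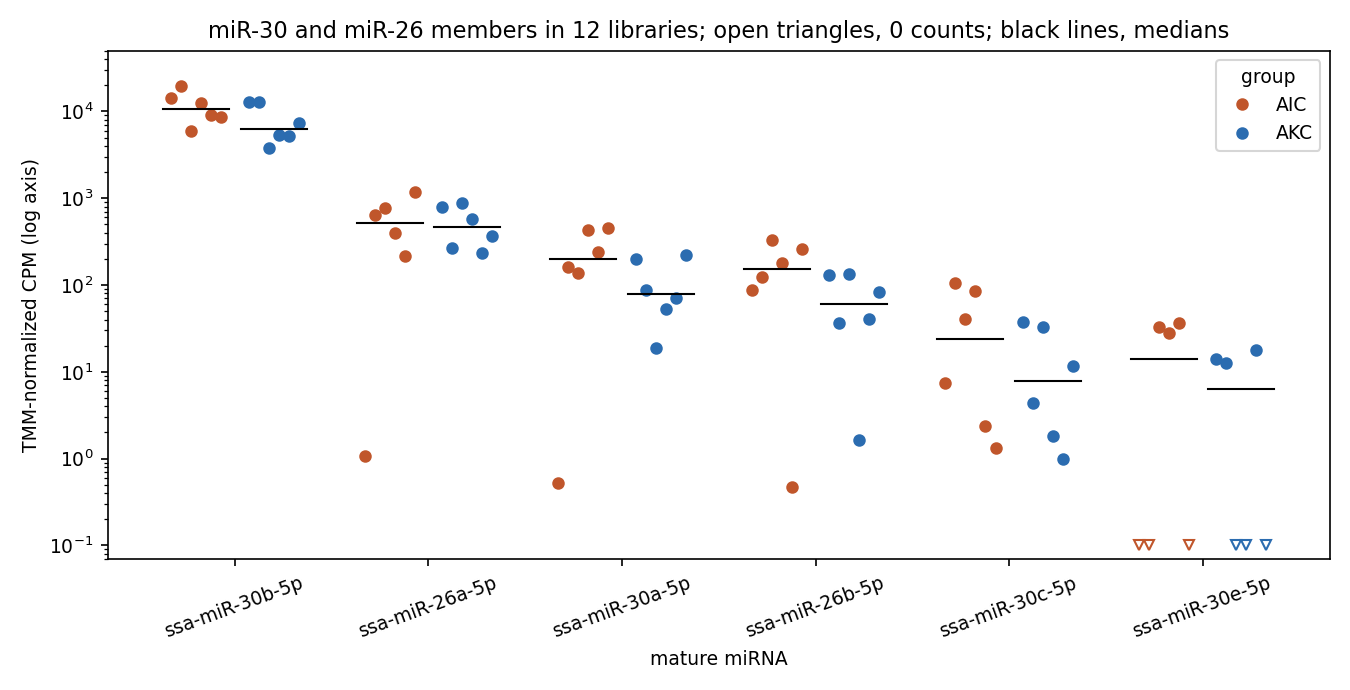
TMM-normalized CPM of the 6 members (log axis) in each AIC and AKC library, with the group medians as black lines and libraries at 0 counts as open triangles at the bottom. ssa-miR-30b-5p lay between 3829 and 19664 CPM in every library, whereas each other member had at least 1 library at 3 counts or fewer.

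By mean CPM over the libraries the order of the members was ssa-miR-30b-5p, ssa-miR-26a-5p, ssa-miR-30a-5p, ssa-miR-26b-5p, ssa-miR-30c-5p and ssa-miR-30e-5p. Only the first step held in every library: ssa-miR-30b-5p exceeded ssa-miR-26a-5p in 12 of 12. ssa-miR-26a-5p exceeded ssa-miR-30a-5p in 10 of 12 libraries, with AIC replicates 4 and 5 in the reverse order. ssa-miR-30a-5p exceeded ssa-miR-26b-5p in 9 of 12, ssa-miR-26b-5p exceeded ssa-miR-30c-5p in 10 of 12, and ssa-miR-30c-5p exceeded ssa-miR-30e-5p in 9 of 12. These neighbours therefore overlapped within the spread between libraries. Read counts of different miRNAs also carry the efficiency with which each is ligated and amplified, so the order is that of the reads.

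The remaining rows of the families were sparse. In human the gene of miR-30b lies beside that of miR-30d, and here ssa-miR-30d-5p had 194 counts in all, of which 193 were in AIC replicates 3 and 4 and 1 in AKC replicate 1. Of the 3p arm, ssa-miR-30a-4-3p had 2687 counts and passed the filter, with 0 counts in 4 AIC libraries and at least 132 in 5 AKC libraries. AIC replicates 2 and 3 had 103 and 309 counts, and AKC replicate 4 had 1. It was not called between AIC and AKC (log2 fold change -0.96, interval -4.87 to 2.94, adjusted p = 0.746, edgeR). ssa-miR-30a-3-3p had 2293 counts, with 0 counts in 6 of the 12 libraries. ssa-miR-30a-3p had 97 counts, all but 1 of them in AIC replicate 3. ssa-miR-26d-5p had 45 counts, at most 17 in a library, and the table lists no 3p row of miR-26. Over all miR-30 rows the 5p arm made up 99.7% ± 0.737 (SD, n = 6) of AIC counts, compared with 99.5% ± 0.382 (SD, n = 6) of AKC counts (p = 0.623 in an exact permutation test, two-sided). This difference of 0.173 percentage points depended on single libraries. It was 0.473 without AIC replicate 3 (adjusted p = 0.0974, exact permutation test) and 0.0401 without AKC replicate 3.

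The counts of the 5 members other than ssa-miR-30b-5p were either low or high as raw counts, with nothing in between. Of their 60 library values, 15 were at most 14 counts and 45 were at least 74 counts, and 0 lay between. The limits of 14 and 74 were chosen after the values had been seen. Low values were found in both groups, 9 of 30 in AIC and 6 of 30 in AKC. Over the 76 miRNAs tested, 16.3% of the library values were at most 14 counts and 1.21% lay between 14 and 74, so the gap was also a feature of the whole table. The low values fell on particular libraries. AIC replicate 1 had 4 of the 5 members low, AKC replicate 4 had 3, and AIC replicates 5 and 6 had 2 each. AIC replicates 3 and 4 and AKC replicates 1 and 2 had none. The 4 libraries with 2 or more low members also led over all 76 miRNAs tested, with 23 at 14 counts or fewer in AIC replicate 1, 22 in AKC replicate 4, 19 in AIC replicate 6 and 18 in AIC replicate 5. The 4 libraries with no low member had between 3 and 11, and the remaining 4 between 8 and 13, so this pattern too was one of the whole table. The 4 libraries with no low member were also the 4 with the most miRNAs detected, between 105 and 125 against between 73 and 95 in the other 8, and each was among the 2 deepest of its group. AIC replicate 1 had the fewest miRNAs detected, 73. The part of depth in this split was not tested. Scaled to the smallest library total, the lowest of the high values would be 12.6 counts and the highest of the low values 8.82 counts. After TMM scaling the values of ssa-miR-30c-5p crossed, since its 14 counts in AIC replicate 1 were 7.42 CPM and its 74 counts in AKC replicate 2 were 4.32 CPM. For this member the split is therefore one of raw counts. For the other members the low values were at most 1.64 CPM and the high values at least 12.5 CPM, so they stayed apart after scaling.

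**Figure D2:**
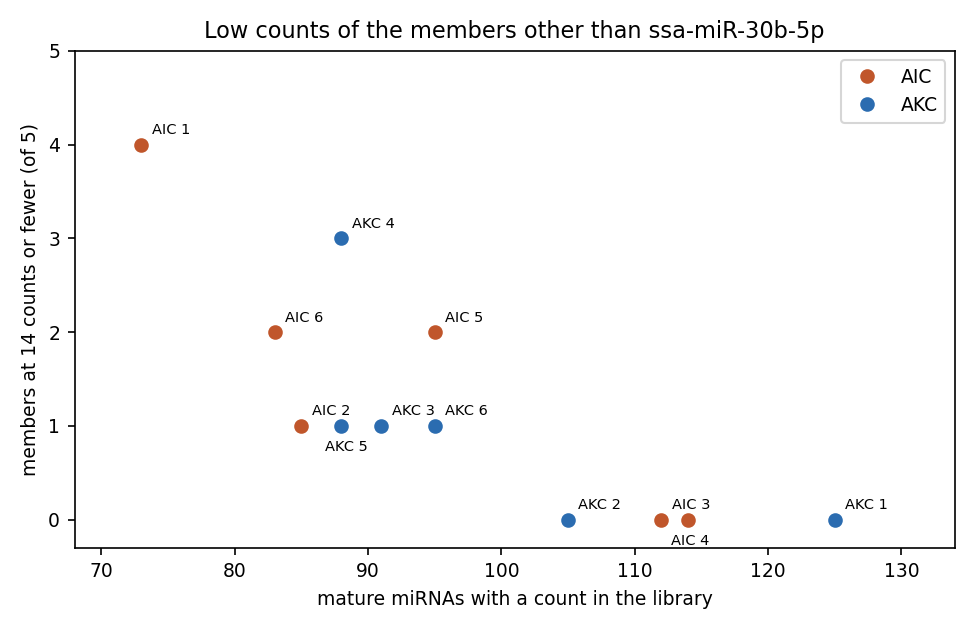
For each library (AIC or AKC with its replicate number), the number of the 5 members other than ssa-miR-30b-5p at 14 counts or fewer, against the number of mature miRNAs with any count. AIC replicate 1 had 4 low members and 73 miRNAs detected, and the 4 libraries with 105 or more miRNAs detected had 0.

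Between AIC and AKC, no member was called differentially expressed. The lack of a call does not show equal levels, and with 6 members it is not read as a trait of the families. All 6 members passed the filter on low counts, and 0 of 6 were called (edgeR with quasi-likelihood F tests, needing a 2-fold change or more and a Benjamini-Hochberg adjusted p under 0.05), against 26.3% of the 76 miRNAs tested. In this fit an unadjusted p below 0.05 was found for 0 of the 6 members. With the replicate number as a block in the edgeR fit, it was found for 1 of them. DESeq2 also called 0. The groups overlapped for all 6, whereas 26.3% of the tested miRNAs had groups that did not overlap. With TMM scaling the fitted values of 6 of 6 members lay above 0, as did 51.3% of all tested miRNAs, and their median log2 fold change was 1.14 against 0.09 for all. None of these differences passed the test, so the values are given without a direction of change.

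The mean level of ssa-miR-30b-5p was 11619 ± 4922 CPM (SD, n = 6) for AIC, compared with 7923 ± 4020 CPM (SD, n = 6) for AKC. This is a log2 fold change of 0.55 with a standard error of 0.37 and a 95% confidence interval from -0.23 to 1.33 (adjusted p = 0.305, edgeR). This interval is the narrowest of the members. With TMM scaling it leaves out a fold change of 2 towards AKC and includes one towards AIC. With total counts alone as library size the value was -0.39, so which cell type held more of ssa-miR-30b-5p depended on the scaling. No interval is given for that fit, so the bound towards AKC holds for TMM only. Over the 12 fits without 1 library it ran from 0.29 without AIC replicate 6 to 0.61 without AKC replicate 2. For ssa-miR-26a-5p the mean was 533 ± 423 CPM (SD, n = 6) over AIC libraries, compared with 521 ± 279 CPM (SD, n = 6) over AKC libraries. Its log2 fold change was 0.03 (interval -1.83 to 1.89, adjusted p = 0.984, edgeR). A value near 0 with this interval does not show that ssa-miR-26a-5p was equally abundant, since fold changes of more than 2 in either direction lie inside it. Leaving out single libraries moved it from -0.46 to 0.21, below 0 in 6 of 12 fits.

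The other members had wider intervals. The log2 fold change was 1.12 for ssa-miR-30a-5p (interval -0.996 to 3.24), 1.21 for ssa-miR-26b-5p (interval -1.13 to 3.54), 1.44 for ssa-miR-30c-5p (interval -1.45 to 4.33) and 1.15 for ssa-miR-30e-5p (interval -3.27 to 5.57). Their adjusted p ran from 0.478 to 0.743 in the same edgeR fit. All these intervals include 0 and fold changes above 4. Without AIC replicate 1, the library with 1 count of ssa-miR-30a-5p, that member had 1.42 and was still not called (adjusted p = 0.180, edgeR). The value of ssa-miR-26b-5p was 0.74 without AIC replicate 3, and that of ssa-miR-30e-5p was 1.88 without AIC replicate 1 and 1.89 without AIC replicate 2. The median over all tested miRNAs moved from 0.09 with TMM to -0.65 with total counts alone. Relative to that median, the median of the members was 1.04 higher with TMM and 0.91 higher with total counts. With DESeq2 without a filter it was 0.69 higher. These medians were not tested and give no direction of change. The most abundant members lay below the member median. ssa-miR-30b-5p had 0.55 with TMM and -0.39 with total counts, and ssa-miR-26a-5p had 0.03 and -0.60.

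**Figure D3:**
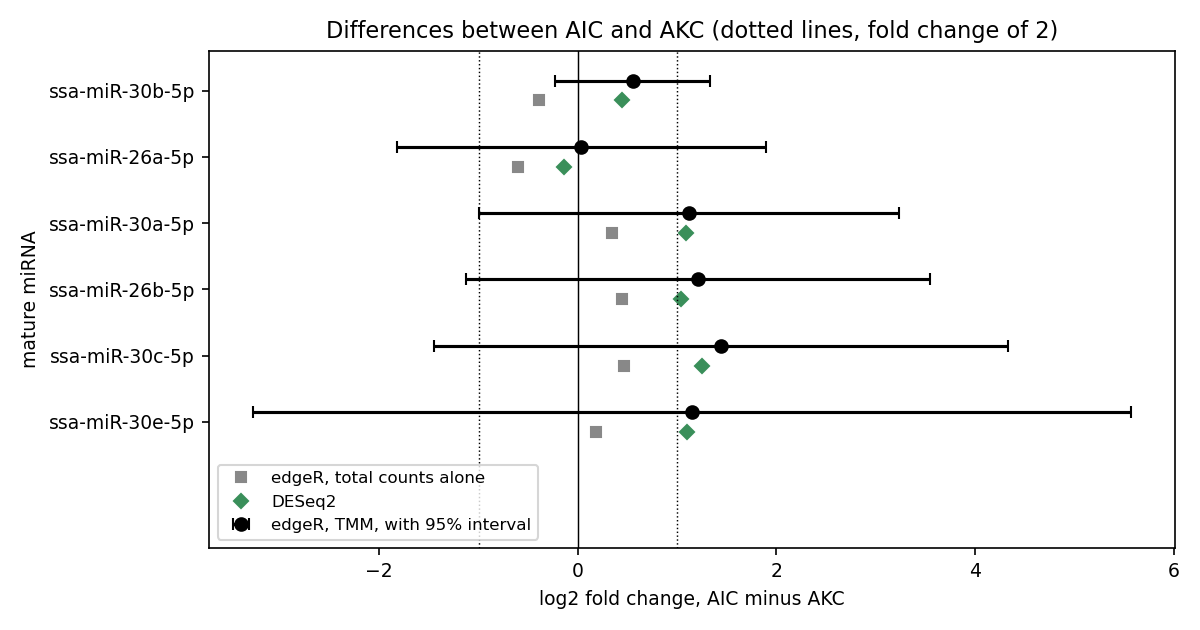
Log2 fold change of AIC minus AKC for each member: black points with 95% confidence intervals from edgeR with TMM scaling, grey squares from edgeR with total counts alone, green diamonds from DESeq2 on the same 76 miRNAs. Every interval includes 0, the narrowest is that of ssa-miR-30b-5p (-0.23 to 1.33), and ssa-miR-30b-5p and ssa-miR-26a-5p lie below 0 with total counts alone.

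Shares and ratios within a library do not depend on TMM scaling, and 9 of them were compared with exact permutation tests, two-sided, over all 924 splits of 6 against 6. The miR-30 members together took 0.851% ± 0.266 (SD, n = 6) of the counts of AIC, compared with 1.10% ± 0.581 (SD, n = 6) of those of AKC (p = 0.355, exact permutation test). The miR-26 members took 0.0593% ± 0.0539 (SD, n = 6) of AIC counts, compared with 0.0794% ± 0.0438 (SD, n = 6) of AKC counts (p = 0.494, exact permutation test). Dividing the miR-30 by the miR-26 counts gave a log2 ratio of 4.52 ± 1.81 (SD, n = 6) for AIC, compared with 3.80 ± 1.17 (SD, n = 6) for AKC (p = 0.437, exact permutation test). With each library left out in turn, the miR-30 difference of -0.251 percentage points ran from -0.370 without AKC replicate 3 to -0.0863 without AKC replicate 1. That of miR-26, -0.0202, ran from -0.0372 without AIC replicate 6 to -0.00898 without AKC replicate 1. The difference in the ratio, 0.72, ran from 0.16 without AIC replicate 1 to 1.13 without AIC replicate 3. Both share differences turned positive, to 3.60 and 0.108 percentage points, when the 5 most abundant miRNAs were left out of the library counts. Those shares are of a smaller total, so only their sign can be set against -0.251 and -0.0202. All 3 main differences lay within the spread between libraries, and after Benjamini-Hochberg adjustment over the 9 tests each p was 0.623.

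Within miR-26, ssa-miR-26a-5p accounted for 67.6% ± 34.4 (SD, n = 6) of AIC counts, compared with 88.0% ± 6.13 (SD, n = 6) of AKC counts (p = 0.104, exact permutation test). The AKC libraries lay between 81.8% and 99.7%. The AIC libraries lay between 68.5% and 99.8% apart from AIC replicate 1, where the share was 1.20% (2 of 167 counts, 95% Wilson interval 0.329% to 4.26%). Without that library the difference was -7.07 percentage points in place of -20.4, and neither passed the test. Within miR-30, ssa-miR-30a-5p accounted for 2.34% ± 1.80 (SD, n = 6) of AIC counts, compared with 1.33% ± 0.892 (SD, n = 6) of AKC counts (p = 0.245, exact permutation test). ssa-miR-30c-5p held a mean of 0.321% in AIC and 0.229% in AKC, and ssa-miR-30e-5p a mean of 0.192% in AIC and 0.0892% in AKC (exact permutation tests, p = 0.587 and 0.381). The share of ssa-miR-30b-5p was 97.1% ± 1.86 (SD, n = 6) for AIC, compared with 98.4% ± 0.829 (SD, n = 6) for AKC (p = 0.175, exact permutation test).

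**Figure D4:**
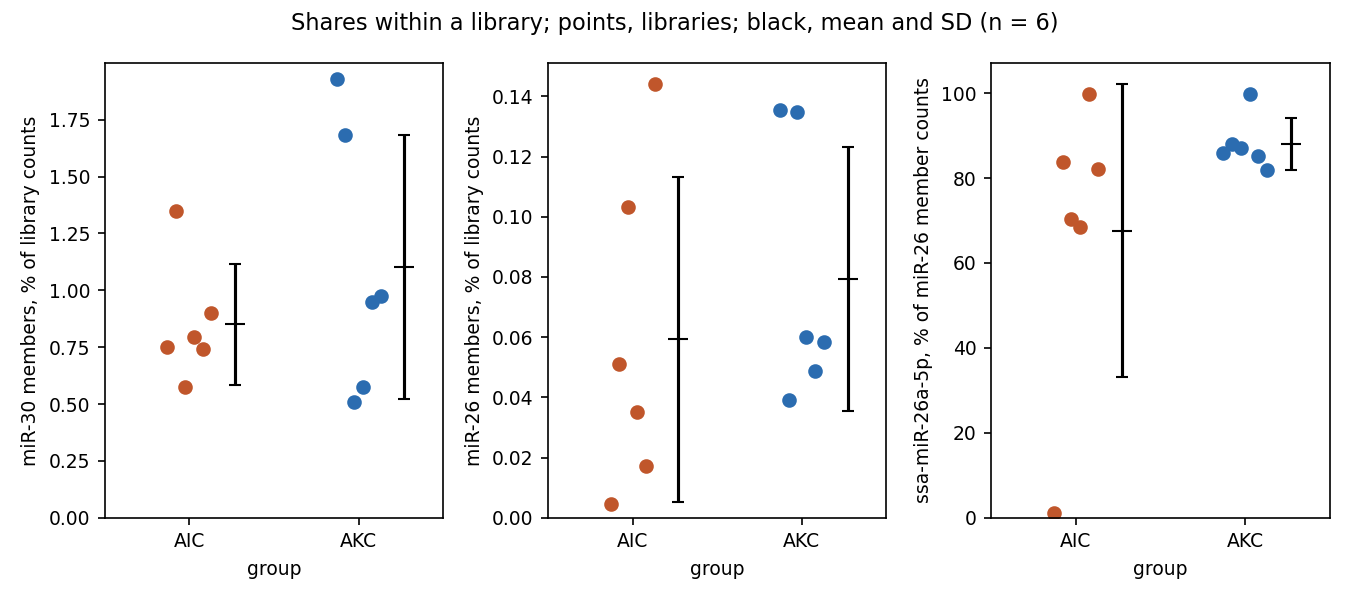
Left and middle, percent of each library's counts held by the miR-30 and the miR-26 members; right, percent of the miR-26 member counts held by ssa-miR-26a-5p. Points are libraries and black bars are mean and SD (n = 6). The groups overlap in all 3 panels, and AIC replicate 1 lies at 1.20% in the right panel against at least 68.5% in the other 11 libraries.

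The largest raw count of each of the 6 members was found in AKC replicate 1, the deepest library. After scaling this library was the highest of AKC for ssa-miR-30b-5p and ssa-miR-30c-5p, while AKC replicate 3 was the highest for ssa-miR-26a-5p and ssa-miR-26b-5p. Without AKC replicate 1 the log2 fold change of ssa-miR-30b-5p was 0.41, and 0 members were called in that fit.

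The profile of each family's most abundant member was set beside the 69 tested miRNAs outside the families, by the root-mean-square difference of log2 CPM over the 12 libraries after centring each miRNA on its own mean. Nearest to ssa-miR-30b-5p were ssa-miR-128-3p (0.530 log2 units), ssa-let-7i-5p (0.654) and ssa-miR-23b-3p (0.668). Unlike ssa-miR-30b-5p, ssa-miR-23b-3p was called between AIC and AKC (log2 fold change 1.39, adjusted p = 0.0164, edgeR), and its groups did not overlap. ssa-miR-128-3p lay between 1158 and 2184 CPM in AIC and between 923 and 1768 CPM in AKC, and like ssa-miR-30b-5p it was highest in replicate 1 and then replicate 2 within AKC. So were ssa-let-7i-5p and ssa-miR-23b-3p. These miRNAs were selected for the smallest differences among the 69, so the shared order is a description. Nearest to ssa-miR-26a-5p were ssa-miR-7132b-5p (1.45), ssa-miR-7132a-5p (1.53) and ssa-miR-15a-5p (2.00). ssa-miR-7132b-5p and ssa-miR-7132a-5p had 0 counts in AIC replicate 1, the library with 2 counts of ssa-miR-26a-5p, and at least 190 counts in each other library. Among the members, ssa-miR-26a-5p and ssa-miR-30a-5p were the closest to each other (1.50), and ssa-miR-26a-5p was 3.48 from ssa-miR-26b-5p of its own family. AIC replicate 1 enters all of these distances. A flat profile was not set beside them as a baseline. The distances therefore rank the miRNAs and do not show that a profile is shared.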

How the data were processed

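The authors trimmed adapters (Cutadapt 1.12 per the labels), filtered reads on quality (FASTX-Toolkit) and used miRDeep2, with mapper.pl on the ICSASG_v2 genome and quantifier.pl on salmon hairpin and mature miRNAs of miRBase. The deposited table holds estimated counts per mature miRNA and library, not normalized, with fractions in 12 of 361 rows, and 181 rows without a count. Related miRNAs can share reads in such counting. Sequences and positions were not analysed here.

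Counts were rounded to whole numbers. edgeR 4.0.16 (R 4.3.3) compared AIC with AKC: filterByExpr kept 76 miRNAs, scaling was by TMM, and p-values of the quasi-likelihood test were adjusted by Benjamini-Hochberg. Calls needed an adjusted p under 0.05 and an absolute log2 fold change of 1 or more. Standard errors and 95% intervals come from the F statistic. The common biological coefficient of variation was 1.17. Shares were tested by exact permutation (Python 3.11.15, NumPy 2.4.6), and for the replicate block by sign flips between same-numbered libraries. The fit was also run on simulated data, and its recovery of known changes there is not reported here. The study used DESeq2, run here as an alternative (1.42.0) beside other scalings, filters, thinning, a replicate block and leaving out each library.

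Named are all family rows and the 3 miRNAs nearest to each family's most abundant member. Members and lists were chosen with earlier results of these data known. Which libraries come from the same fish is not stated, so the main tests treated them as unpaired. Same-numbered libraries of AIC and AKC correlated between -0.118 and 0.0717 in their deviations. This cannot show that no fish were shared, since the numbers may not mark the fish.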

Additional observations from a re-analysis of the deposited data

Results flagged for a closer look

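In 30 groups of 6 libraries (levels and shares of the members, AIC and AKC apart), a library was compared with its group by the gap to its nearest neighbour over the range of the group. The gap was past Dixon's 95% limit for 5 libraries. For independent groups of normally distributed values, chance gives about 1 in 20 groups. Shares are bounded and depend on each other within a family, so these 5 cannot be read as more than chance gives. No member's CPM was among them, and all 5 were shares. ssa-miR-26a-5p held 1.20% of the miR-26 counts in AIC replicate 1 (95% Wilson interval 0.329% to 4.26%), against between 68.5% and 99.8% in the other AIC libraries. It held 99.7% in AKC replicate 4 (interval 99.5% to 99.8%), where ssa-miR-26b-5p had 10 counts, against between 81.8% and 87.9% in the other AKC libraries. ssa-miR-30c-5p held 0.854% of the miR-30 counts in AKC replicate 3 (interval 0.778% to 0.938%), against at most 0.280% in the others. ssa-miR-30e-5p held 0.333% in AKC replicate 5 (interval 0.294% to 0.377%), against at most 0.106%. The 5p arm held 98.2% of all miR-30 counts in AIC replicate 3 (interval 98.0% to 98.3%), against at least 99.9% in the other AIC libraries. The causes were not tested.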

How the results depend on the processing

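No member was called in any of the 9 alternative fits or the 12 that left out a library, and 113 of 126 fitted values of members kept their sign. ssa-miR-26a-5p turned from 0.03 to -0.14 with DESeq2's size factors and with DESeq2 (both filters), to -0.60 with total counts alone, to -0.065 without a filter and to -0.23 with the replicate block, and it ran from -0.46 to 0.21 when each library was left out. ssa-miR-30b-5p turned to -0.39 with total counts alone. Without the 5 most abundant miRNAs in the denominator, the difference between AIC and AKC turned to 3.60 percentage points for the miR-30 share and to 0.11 for the miR-26 share, neither past the test. The smaller denominator enlarges these values. Over all miRNAs 20 were called (13 higher, 7 lower in AIC), against 41 without a filter, 33 with DESeq2 on the same 76 miRNAs and 57 with DESeq2 without a filter. Higher and lower calls numbered 9 and 20 on total counts, 17 and 16 with DESeq2 on the same miRNAs, 32 and 9 without a filter, and 12 and 10 with the replicate block. The replicate block gave ssa-miR-30b-5p 0.60 (adjusted p = 0.0697, edgeR), called 22 miRNAs, and changed no call of a member. In that fit 1 member had an unadjusted p below 0.05, against 0 without the block. For the shares the block was a sign-flip test on same-numbered libraries, and no share passed it. With 6 per group it has too few outcomes to pass readily after adjustment, so it cannot decide about the shares. No AIC library correlated best with the AKC library of its own number, and the reverse match was not computed. The 3p arm has no member, so the arm share used all miR-30 rows. A common coefficient of variation of 1.17 limits what 6 libraries per group can show for members with libraries near 0.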

Other observations

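Values that were not whole numbers occurred in 2 of the 6 members. ssa-miR-26a-5p had 6 such libraries and ssa-miR-30a-5p had 5, and all 11 values were multiples of 1/6 to within 0.01, those of ssa-miR-30a-5p all ending in 0.5. The origin of the fractions was not tested.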
